A study of Mus musculus with 6 samples.

Results

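The genes described here encode the proteins of the cytosolic ribosome. They were chosen by symbol (Rpl, Rplp, Rps or Rpsa followed by a number, with the ribosomal S6 kinases and symbols of pseudogenes left out), and 81 of the 12065 genes in the table met this rule. Of these, 48 encode proteins of the large subunit and 33 of the small subunit. The samples were the distal ends of mouse limb buds, each library made from a pool of 2 embryos. The 3 Meis2-overexpressing pools came from HoxB6CreER; R26Meis2a/Meis2a embryos, in which a tamoxifen-dependent Cre under HoxB6 control switches on Meis2a followed by an IRES and EYFP at the Rosa26 locus. The 3 control pools came from R26Meis2a/Meis2a embryos without Cre, so raised Meis2 and the presence of Cre cannot be told apart. The mothers of both groups were injected with 4-hydroxytamoxifen (0.8 mg) on embryonic day 8.3. There was 1 pool of each genotype at 37, 1 at 38 and 1 at 39 somites, and values for a genotype are listed in that order of stages. The labels do not say how the pairs of embryos were chosen, and p-values measure the spread between these pools.

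A ribosome joins a small subunit, which holds the mRNA and reads its codons, to a large subunit, which forms the peptide bonds. Most ribosomal proteins are needed in equal numbers. Their mRNAs are among the most abundant of a growing cell and commonly begin with a cytosine followed by a run of pyrimidines, the terminal oligopyrimidine (TOP) tract through which TOR signalling controls their translation. In mice, loss of single ribosomal proteins can give tissue-specific defects. The best known for the body plan is Rpl38, whose loss alters the axial skeleton and the translation of a subset of Hox mRNAs. Mammalian genomes hold many processed pseudogenes of these genes, copies of the spliced mRNA inserted elsewhere, and short reads from the gene can be assigned to such a copy.

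The deposited values are read counts scaled by the authors' effective library sizes (CPM, the usual depth-scaled unit), behind which lay 7622698 to 15395447 recovered reads per library. Meis2 itself had 41.3, 33.4 and 28.2 CPM in Meis2-overexpressing pools, against 20.6, 15.3 and 13.8 CPM in control pools. Of the 13 limb mesenchyme markers listed, 13 were measured, with a summed level of 1779 to 2162 CPM in Meis2-overexpressing pools and 1983 to 2376 CPM in control pools. All 16 apical ridge and ectoderm markers had fold changes below 0, with sums of 447 to 489.6 CPM in Meis2-overexpressing pools, against 640.7 to 679 CPM in control pools. All 11 measured erythroid markers had fold changes above 0, with sums of 4072 to 4864 CPM in Meis2-overexpressing pools, against 2357 to 3447 CPM in control pools, and the 10 endothelial markers summed to 281 to 287 CPM, against 225.5 to 253.1 CPM in control pools. Of 7 muscle, 6 macrophage and 6 nerve and neural crest markers, 1, 2 and 4 had a row in the table, with sums of at most 3.76, 9.45 and 39.1 CPM in Meis2-overexpressing pools, against 6.53, 10.5 and 45.2 CPM in control pools. In such bulk samples, fewer cells of a type and less RNA per cell cannot be told apart, and the part of these cell types in the values below was not tested.

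Between the genotypes, levels of these genes differed little, and 1 of the 81 passed an adjusted p of 0.05, beside 1.47% of all genes. Together they took 3.94%, 3.71% and 3.77% of the summed CPM in Meis2-overexpressing pools, against 4.04%, 3.79% and 3.78% in control pools. The large subunit genes summed to 20637 ± 596 CPM in Meis2-overexpressing tips and 21395 ± 898 CPM in control tips (SD, n = 3 each). The small subunit genes summed to 17270.3 ± 894 CPM in Meis2-overexpressing tips and 17489.8 ± 579 CPM in control tips. The genotypes overlapped in both sums.

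Gene by gene, 1 of 48 large subunit genes and 0 of 33 small subunit genes passed an adjusted p of 0.05 by limma on log2(CPM + 1), against 1.47% of all 12065 genes. At an unadjusted p under 0.05 there were 7 large and 2 small subunit genes (14.6% and 6.06%), where 15.9% of all genes were, and edgeR and DESeq2 also called 0 small subunit genes. On that scale the median log2 fold change (Meis2 overexpression over control) was -0.03 for the large and -0.01 for the small subunit, beside -0.00 for all genes. The fold change was below 0 for 33 large and 19 small subunit genes. The 95% interval of the limma fold change lay within 0.5 log2 units of 0 for 46 of 48 large and 28 of 33 small subunit genes, which was so for 79.1% of all genes. The genotypes did not overlap for 12 members, 11 lower and 1 higher, beside 20.7% of all genes. EdgeR's quasi-likelihood test on the recovered reads called the same single member, Rpl29, where it called 171 of all 12065 genes. DESeq2 called 3 members, Rpl29, Rplp0 and Rpl13a, all lower, where it called 2.40% of all genes.

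Reads can also stand in the rows of copies of these genes. Rows for 42 near-identical copies of 36 members (26 large, 10 small) were also in the table, found by at least 97% identity over 100 bases and 50% of the copy in GENCODE M21 transcripts. GENCODE M21 holds 348 such copies of 73 members, among them 33 of Rpl21. The other 45 members had no copy in the table, which does not show that they lost no reads to copies that are not listed there. For 14 members a listed copy was identical over the whole aligned stretch, so that no read inside it could be told from the gene's own. Copies held over 50% of the summed CPM for 12 members and over 80% for 5 of them. Counting each member together with its copies, the ribosomal protein genes took 4.85%, 4.64% and 4.69% of the summed CPM in Meis2-overexpressing pools, against 4.96%, 4.59% and 4.60% in control pools.

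With copies summed, 0 of 81 members were called by limma, where 1.61% of the 12023 rows were, and 2 members (2.47%) had an unadjusted p under 0.05, where 16.2% of all rows did. Copies were summed only for these members and the other rows kept their deposited values, so the shares of all rows are not a like comparison. The median log2 fold change was then -0.01 for the large and 0.00 for the small subunit. The interval lay within 0.5 log2 units of 0 for 48 of 48 large and 32 of 33 small subunit genes. The genotypes still did not overlap for 5 members, Rpl13a, Rpl23a, Rpl24 and Rps27 lower and Rps4y2 higher, beside 20.7% of all rows. Of these 5, Rpl24 had 1 copy in the table and the others had none. The coefficient of variation over the 6 pools was smaller with copies than without for 30 of the 36 members that had them, and its median over the large subunit genes was 4.99% with copies and 6.24% without, beside 8.95% and 8.96% for all rows.

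**Figure D1:**
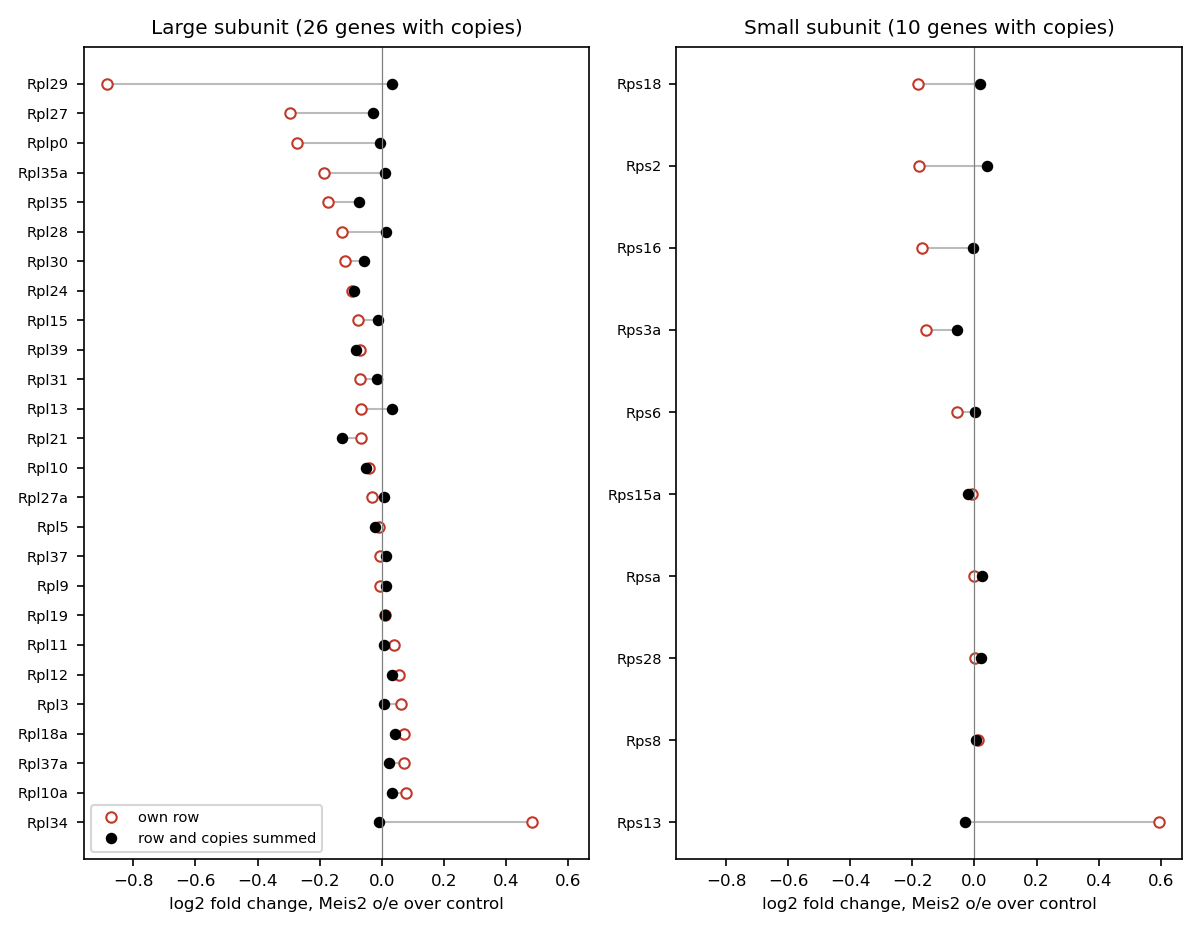
Log2 fold change (Meis2 overexpression, written o/e, over control, log2(CPM + 1) scale, x axis) of the 26 large and 10 small subunit genes that had a near-identical copy in the table. Open circles are the gene's own row and filled circles the row and its copies summed; Rpl29 moves to 0.03 and Rpl34 and Rps13 to -0.01 and -0.03 on summing.

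Rpl29, a large subunit protein whose loss makes mice small, was the called member. Its own row had 236, 246 and 232 CPM in Meis2-overexpressing pools, against 486, 412 and 426 CPM in control pools. The genotypes were far apart (log2 fold change -0.89, SE 0.07, limma adjusted p = 0.000103). Its processed pseudogene Gm13841 had 216, 215 and 208 CPM in Meis2-overexpressing pools, against 0.0947, 0 and 0.958 CPM in control pools. The summed level was 452, 461 and 439 CPM in Meis2-overexpressing pools, against 486, 412 and 427 CPM in control pools, and these sums overlapped (log2 fold change 0.03, SE 0.07, limma adjusted p = 0.842). The gene lies on chromosome 9 and the copy on chromosome 5 of GRCm38. Over the 483 coding bases they differ at 3 positions, C72A, C300T and T423C, with the gene's base first and positions counted from the A of the start codon. The stretch around the first of these is shown, coding positions 42 to 101 with the differing base in capitals. A read that misses all 3 positions fits both rows equally well, and why Gm13841 held almost no reads in control pools was not tested.
Rpl29: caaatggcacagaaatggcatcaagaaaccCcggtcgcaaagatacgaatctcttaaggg
Gm13841: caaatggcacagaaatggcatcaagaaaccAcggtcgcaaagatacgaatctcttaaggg

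Rpl35a and Rplp0 had copies whose reads differed between the genotypes in the same direction. The Rpl35a row had 305, 315 and 269.96 CPM in Meis2-overexpressing pools, against 330.4, 352 and 329 CPM in control pools, without overlap (log2 fold change -0.19). The row of Rpl35a-ps2 had 63.5, 3.37 and 63.5 CPM in Meis2-overexpressing pools, against 0.0947, 0 and 0 CPM in control pools. Of the 3 Meis2-overexpressing pools, the one at 38 somites was much the lowest, and the control pools were below the floor of 3 reads. The sums overlapped, with a log2 fold change of 0.01. The copy, on chromosome 1, differs from the gene, on chromosome 16, at 1 of 333 coding bases, G156A, and coding positions 126 to 185 show it in capitals.
Rpl35a: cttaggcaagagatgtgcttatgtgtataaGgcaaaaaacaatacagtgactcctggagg
Rpl35a-ps2: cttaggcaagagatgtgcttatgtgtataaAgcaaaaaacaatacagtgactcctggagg

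Rplp0 is the scaffold of the ribosomal stalk, the flexible arm of the large subunit that recruits elongation factors, and Rplp1 and Rplp2 are the paired proteins that hang from it. The Rplp0 row had 1122, 1151 and 1089 CPM in Meis2-overexpressing pools, against 1556, 1241 and 1289 CPM in control pools (log2 fold change -0.27, SE 0.08, limma adjusted p = 0.154), and the control pool at 37 somites was the highest. Its copy Gm8730 had 238, 222 and 219.8 CPM in Meis2-overexpressing pools, against 0, 0 and 0 CPM in control pools, where 0 reads in a library allow up to 3. A second copy, Gm14165, had 4.12, 4.53 and 3.94 CPM in Meis2-overexpressing pools, against 0, 0.0872 and 0 CPM in control pools, and a row named Rplp0-ps1, outside the identity limit, had 5.42, 4.66 and 4.27 CPM in Meis2-overexpressing pools, against 0, 0 and 0.1198 CPM in control pools. With Gm8730 and Gm14165 added, Rplp0 overlapped between the genotypes, at a log2 fold change of -0.00. Gm8730, on chromosome 8, differs from Rplp0, on chromosome 5, at 12 of 954 coding bases. Coding positions 361 to 420 are shown because they hold 2 of these, A390G and A393G.
Rplp0: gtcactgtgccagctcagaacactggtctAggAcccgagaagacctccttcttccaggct
Gm8730: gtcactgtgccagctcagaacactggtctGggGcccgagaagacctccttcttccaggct
Rplp1 had 401, 407 and 389 CPM in Meis2-overexpressing pools, against 522, 394 and 396 CPM in control pools, with the control pool at 37 somites above the other 5. Rplp2 had 239.8, 281 and 267 CPM in Meis2-overexpressing pools, against 248, 231 and 248 CPM in control pools, with overlap, and log2 fold changes of -0.12 for Rplp1 and 0.11 for Rplp2 were not called.

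The other large subunit genes with the greatest fold changes also had copies. Rpl34 had 303, 104 and 217 CPM in Meis2-overexpressing pools, against 79.1, 157 and 200.3 CPM in control pools, a log2 fold change of 0.48 with an SE of 0.38. Its copy Rpl34-ps1 had 0.561, 196 and 81.4 CPM in Meis2-overexpressing pools, against 248, 139 and 86.6 CPM in control pools, low where Rpl34 was high. Their sum was 304, 300.3 and 299 CPM in Meis2-overexpressing pools, against 327, 295 and 287 CPM in control pools, a log2 fold change of -0.01. Rpl27 had 40.96, 40.01 and 45.3 CPM in Meis2-overexpressing pools, against 55.97, 51.3 and 48.4 CPM in control pools, without overlap. More reads stood in Rpl27-ps3, a copy identical over the whole coding sequence, with 342, 342 and 337 CPM in Meis2-overexpressing pools, against 361, 328 and 325 CPM in control pools. The log2 fold change of Rpl27 was -0.29 on its own (limma adjusted p = 0.12) and -0.03 with the copy.

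**Figure D2:**
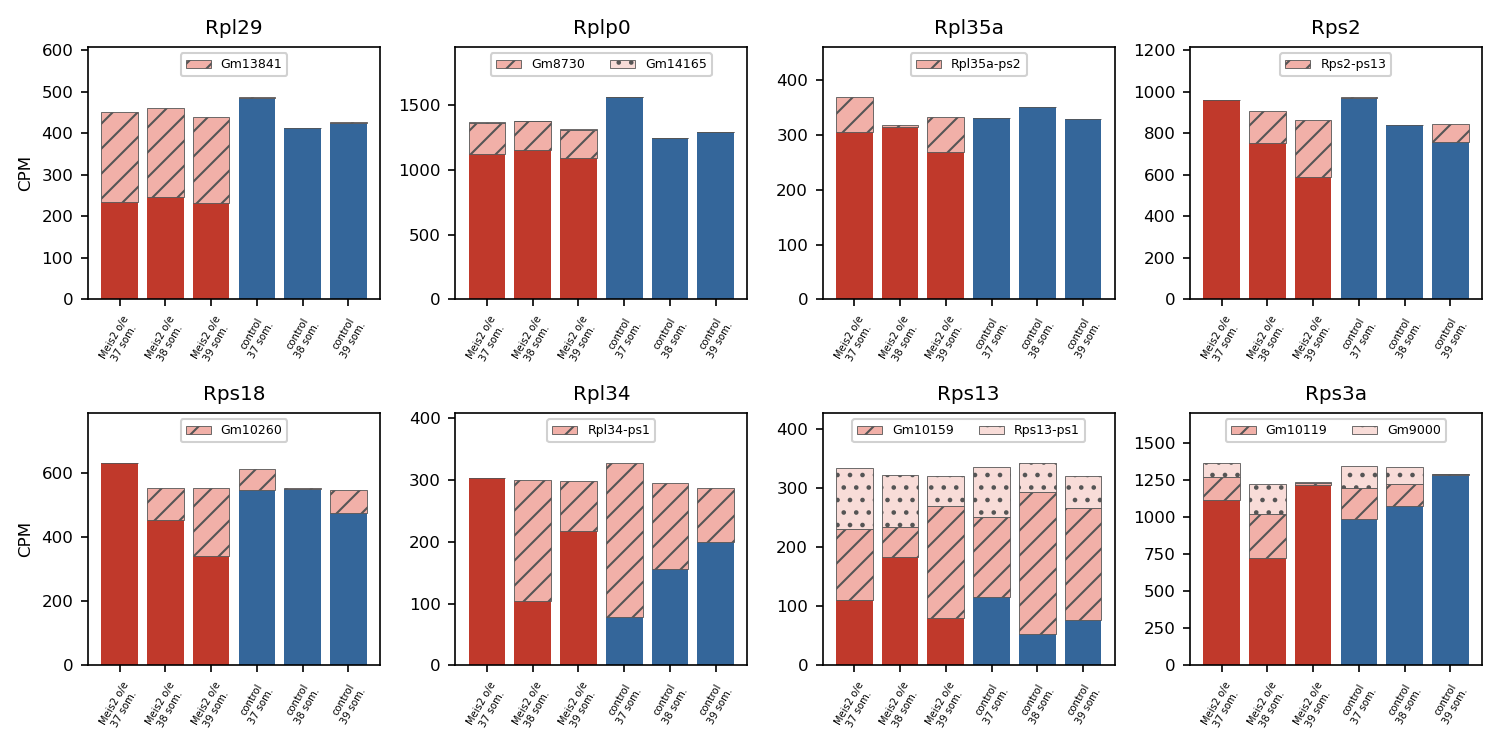
CPM (y axis, from 0) of 8 members, solid bars, with the CPM of their near-identical copies stacked on top, hatched or dotted, in each of the 6 pools (red, Meis2 overexpression, written o/e; blue, control; som., somites). The member's own share varies from pool to pool while the stacked height varies less; in Rpl34 the own row spans 79.1 to 303 CPM.

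Rpl13a, which in human monocytic cells also takes part in silencing inflammatory mRNAs, had no copy in the table. It had 738, 728 and 729 CPM in Meis2-overexpressing pools, against 883, 853 and 791 CPM in control pools, all Meis2-overexpressing pools below all control pools. The log2 fold change was -0.20 (SE 0.06), with an adjusted p of 0.134 by limma and 0.0412 by DESeq2. GENCODE M21 lists 1 near-identical copy of Rpl13a, which is not in the table. Rpl28 had 305, 302 and 309 CPM in Meis2-overexpressing pools, against 348, 342 and 312 CPM in control pools and its identical copy Rpl28-ps1 had 43.3, 69.1 and 56.5 CPM in Meis2-overexpressing pools, against 45.9, 0.523 and 27.8 CPM in control pools. The log2 fold change of Rpl28 was -0.13 on its own and 0.01 with the copy. Rpl13 had 338, 400.4 and 333 CPM in Meis2-overexpressing pools, against 400.3, 377 and 344 CPM in control pools and its identical copy Gm12918 171, 158 and 197 CPM in Meis2-overexpressing pools, against 186, 112 and 147 CPM in control pools, with log2 fold changes of -0.07 alone and 0.03 with the copy.

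Rpl5 and Rpl11 travel with the 5S rRNA and bind Mdm2 when ribosome assembly stalls, which stabilises p53. The Rpl5 row had 109, 92.1 and 101 CPM in Meis2-overexpressing pools, against 93.1, 108 and 103 CPM in control pools. Its copy Gm15500, identical over 1018 bases, had 1228, 1107 and 1167 CPM in Meis2-overexpressing pools, against 1209, 1182 and 1166 CPM in control pools, so that 92.1% of the summed CPM lay in the copy. Rpl11 had 418, 411 and 389 CPM in Meis2-overexpressing pools, against 426, 402 and 359 CPM in control pools and Gm10288, which differs at 1 base, had 333, 284 and 321 CPM in Meis2-overexpressing pools, against 321, 298 and 338 CPM in control pools. Neither gene separated the genotypes, with log2 fold changes after summing of -0.02 for Rpl5 and 0.01 for Rpl11.

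Rpl10, which completes the large subunit late in its assembly, had 444, 447 and 459 CPM in Meis2-overexpressing pools, against 456, 558 and 390.3 CPM in control pools. Rpl10-ps3, identical over 740 bases and annotated as protein coding, had 496, 463 and 459 CPM in Meis2-overexpressing pools, against 545, 394 and 525 CPM in control pools. The gene was highest and the copy lowest in the control pool at 38 somites. Rpl10a, part of the stalk next to the exit site, had 80.2, 87.3 and 79.02 CPM in Meis2-overexpressing pools, against 101, 65.9 and 70.3 CPM in control pools, and Rpl10a-ps1 had 590.1, 561 and 562 CPM in Meis2-overexpressing pools, against 598, 532 and 553 CPM in control pools. For Rpl27a, mutated in mice with dark feet and ataxia, the row had 86.9, 73.03 and 76.4 CPM in Meis2-overexpressing pools, against 77.5, 82.4 and 81.2 CPM in control pools and Gm7536 517, 525 and 504 CPM in Meis2-overexpressing pools, against 558, 492 and 485 CPM in control pools. In both of the last pairs the copy was identical and held most of the reads, and log2 fold changes after summing were -0.05, 0.03 and 0.01 for Rpl10, Rpl10a and Rpl27a.

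Rpl21, mutated in a human hair loss disorder, had 104, 88.1 and 97.8 CPM in Meis2-overexpressing pools, against 93.5, 104 and 106 CPM in control pools, and its copy Gm10163 had 73.3, 51.7 and 60.7 CPM in Meis2-overexpressing pools, against 77.5, 72.2 and 63.96 CPM in control pools. The summed log2 fold change was -0.13 (limma adjusted p = 0.457), and further copies of Rpl21 are not in the table. Rpl38, the gene with the Hox-linked phenotype, had 179, 171 and 169 CPM in Meis2-overexpressing pools, against 172, 171 and 169 CPM in control pools, which overlapped (log2 fold change 0.02, 95% interval -0.10 to 0.14). It had no copy in the table. The row labelled Rpl24, a protein of the subunit interface mutated in Belly spot and tail mice, had 415, 383 and 406 CPM in Meis2-overexpressing pools, against 441, 423 and 423 CPM in control pools. GENCODE M21 gives the identifier of that row to Zbtb11, so whether these reads are from Rpl24 is uncertain. Rpl9 had 719, 630.1 and 671 CPM in Meis2-overexpressing pools, against 688, 683 and 655 CPM in control pools and Rpl37 had 166, 159 and 149 CPM in Meis2-overexpressing pools, against 166, 144 and 166 CPM in control pools. Adding Rpl9-ps7, with 15.4, 29.3 and 20.2 CPM in Meis2-overexpressing pools, against 12.8, 15.01 and 10.4 CPM in control pools, and Gm13826, with 135, 136 and 136 CPM in Meis2-overexpressing pools, against 138, 134 and 124 CPM in control pools, took both log2 fold changes to 0.01, where the rows alone gave -0.01 for each.

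Paralogues of large subunit genes were measured beside their parents. Rpl22l1 had 158, 129 and 145 CPM in Meis2-overexpressing pools, against 119.9, 177 and 145 CPM in control pools, and its parent Rpl22, an RNA-binding protein that can be replaced by Rpl22l1 in the ribosome, had 365, 341 and 347 CPM in Meis2-overexpressing pools, against 354, 376 and 349.9 CPM in control pools. Rpl7l1 had 189, 173 and 187 CPM in Meis2-overexpressing pools, against 206, 183 and 183 CPM in control pools and Rpl7 had 1362, 1221 and 1289 CPM in Meis2-overexpressing pools, against 1339, 1322 and 1280.2 CPM in control pools. Rpl36al, an intronless paralogue, had 149.9, 138 and 136 CPM in Meis2-overexpressing pools, against 154, 158 and 136 CPM in control pools and Rpl36a had 324, 283 and 301 CPM in Meis2-overexpressing pools, against 319, 317 and 303 CPM in control pools. Log2 fold changes were -0.02, -0.06 and -0.08 for Rpl22l1, Rpl7l1 and Rpl36al, and -0.04, -0.03 and -0.05 for the parents Rpl22, Rpl7 and Rpl36a. All of these overlapped between the genotypes.

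In the small subunit, Rps13, Rps4y2 and Rps18 had the largest fold changes. Rps13, which bridges to the large subunit, had 111, 183 and 80.8 CPM in Meis2-overexpressing pools, against 116, 52.95 and 76.7 CPM in control pools. Its identical copy Gm10159 had 119.99, 51.02 and 188 CPM in Meis2-overexpressing pools, against 136, 241 and 189 CPM in control pools and Rps13-ps1 had 102, 87.7 and 51.4 CPM in Meis2-overexpressing pools, against 83.5, 47.5 and 53.4 CPM in control pools. The sum was 333, 322 and 320.3 CPM in Meis2-overexpressing pools, against 335, 341 and 319 CPM in control pools, so the log2 fold change was 0.59 (SE 0.30) on its own and -0.03 with the copies. Rps18, in the head of the small subunit, had 631, 454 and 343 CPM in Meis2-overexpressing pools, against 546, 552 and 476 CPM in control pools. Gm10260 had 0, 99.2 and 211 CPM in Meis2-overexpressing pools, against 65.6, 0.9596 and 73.3 CPM in control pools, highest in the pool where Rps18 was lowest, and the log2 fold change was -0.18 alone and 0.02 summed.

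Rps4y2 was the 1 member above control in every Meis2-overexpressing pool. It had 35.9, 40.5 and 40.3 CPM in Meis2-overexpressing pools, against 31.6, 29.7 and 28.4 CPM in control pools (log2 fold change 0.37, SE 0.08, 95% interval 0.19 to 0.55). The limma adjusted p was 0.0598, and without the Meis2-overexpressing pool at 37 somites and with copies summed it was 0.0464. GENCODE M21 names the identifier Rps4l and annotates it as a transcribed processed pseudogene. Rps4x, the X-linked gene of the same protein family, had 1436, 1308 and 1336 CPM in Meis2-overexpressing pools, against 1425, 1323 and 1364 CPM in control pools and a log2 fold change of -0.01.

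Rps6, the substrate of the ribosomal S6 kinases, had 759, 663 and 652 CPM in Meis2-overexpressing pools, against 706, 719 and 728 CPM in control pools. Its identical copy Gm13654 had 548, 512 and 571 CPM in Meis2-overexpressing pools, against 593, 472 and 482 CPM in control pools, and the log2 fold change was -0.06 alone and 0.00 summed. Rpsa, which doubles as a laminin receptor precursor and is mutated in human asplenia, had 1186, 1117 and 1148 CPM in Meis2-overexpressing pools, against 1261, 1072 and 1126 CPM in control pools, and Rpsa-ps10 had 348, 330.2 and 302 CPM in Meis2-overexpressing pools, against 333, 274 and 297 CPM in control pools. Its log2 fold change was -0.00 alone and 0.03 summed. Both genes overlapped between the genotypes.

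Rps19, the gene most often mutated in human Diamond-Blackfan anaemia, had 369.9, 349 and 340.2 CPM in Meis2-overexpressing pools, against 379.7, 359.5 and 339 CPM in control pools. Rps20, which like Rps19 gives dark skin in mouse mutants, had 512, 497 and 499 CPM in Meis2-overexpressing pools, against 521, 479.6 and 459 CPM in control pools. Rps7 had 608, 603 and 654 CPM in Meis2-overexpressing pools, against 673, 668 and 610.5 CPM in control pools. Rps14, lost in the human 5q- syndrome, had 563, 514 and 552 CPM in Meis2-overexpressing pools, against 530.2, 505 and 538 CPM in control pools, and Rps25, used for initiation at internal ribosome entry sites, had 484, 445 and 465 CPM in Meis2-overexpressing pools, against 482, 498 and 455 CPM in control pools. None of these 5 had a copy in the table or separated the genotypes. Their log2 fold changes were -0.03 for Rps19, 0.05 for Rps20, -0.07 for Rps7, 0.05 for Rps14 and -0.04 for Rps25. Rps27l, a paralogue of Rps27 and in human cells a p53 target, had 99.9, 96.9 and 87.6 CPM in Meis2-overexpressing pools, against 108, 108 and 90.7 CPM in control pools, and Rps27 had 276, 265 and 281 CPM in Meis2-overexpressing pools, against 284, 287 and 293 CPM in control pools. Rps27 did not overlap, at a log2 fold change of -0.07, and Rps27l did, at -0.11.

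Levels of different members were compared per kilobase of coding length, as CPM per kilobase over the 6 pools. On their own rows, the 47 large subunit genes with a usable length had a median of 772 and the 32 small subunit genes a median of 1115. With copies summed the medians were closer, at 1017 and 1202. Coding length leaves out the untranslated ends, so genes with a short coding sequence, such as Rpl39 at 156 bases, can be overstated. The lowest and highest large subunit genes on their own rows were Rpl5 at 113 and Rpl39, which lines the exit tunnel, at 1874, a ratio of 16.6. Rpl5 had 113 ± 9.45 in Meis2-overexpressing pools and 113 ± 8.49 in control pools (SD, n = 3 each), next to Rpl27 with 102 ± 6.896 in Meis2-overexpressing pools and 126 ± 9.31 in control pools and Rpl10a with 126 ± 6.81 in Meis2-overexpressing pools and 121 ± 29.5 in control pools. Rpl27 had the lower mean of these in Meis2-overexpressing pools and a higher mean than Rpl5 in control pools, and the genes were not tested against each other. At the top, Rpl39 had 1827 ± 57.9 in Meis2-overexpressing pools and 1921 ± 134 in control pools, Rpl23 1592 ± 116 in Meis2-overexpressing pools and 1626 ± 10.04 in control pools and Rpl7 1587 ± 86.8 in Meis2-overexpressing pools and 1616 ± 37.2 in control pools. Rpl23 and Rpl7 did not differ beyond their spread. Their CPM, without division by length, were 294, 276 and 285 for Rpl39 and 722, 625 and 673 for Rpl23 in Meis2-overexpressing pools, against 283, 323 and 293 and 684, 692 and 687 in control pools.

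In the 3 lowest large subunit genes, Rpl5, Rpl27 and Rpl10a, copies held over 80% of the summed CPM. With copies summed, Rpl5 was at 1429, Rpl27 at 939.5 and Rpl10a at 989 CPM per kilobase, and the ratio of the upper to the lower quartile of the large subunit genes was 1.52, where the rows alone gave 2.57. For the small subunit the ratio was 1.36 with copies and 1.45 without. The large subunit genes then summed to 1.44, 1.47 and 1.46 times the CPM of the small subunit genes in Meis2-overexpressing pools, against 1.49, 1.47 and 1.47 in control pools. The lowest after summing were Rpl7l1 at 252, Rpl21 at 342 and Rpl22l1 at 395 in the large subunit, and Rps27a at 244, Rps27l at 309.9 and Rps13 at 720.2 in the small one.

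In the small subunit, Rps24 had 1701 ± 95.2 in Meis2-overexpressing pools and 1767 ± 47.4 in control pools, Rps4x 1717 ± 84.4 in Meis2-overexpressing pools and 1731 ± 64.97 in control pools and Rps12 1748 ± 77.2 in Meis2-overexpressing pools and 1676 ± 153 in control pools CPM per kilobase, the 3 highest, which did not differ beyond their spread. In CPM, Rps24 had 720.1, 644 and 688 CPM in Meis2-overexpressing pools, against 728, 713 and 690.2 CPM in control pools. Rps12 had 733, 679 and 680.2 CPM in Meis2-overexpressing pools, against 735, 614 and 657 CPM in control pools. Rps27a is made as a fusion to ubiquitin, and its row had 106, 121 and 114 CPM in Meis2-overexpressing pools, against 116, 128 and 103 CPM in control pools. The ubiquitin-like fusion gene Fau encodes a ribosomal protein that the naming rule leaves out, and it had 29.7, 44.2 and 37.3 CPM in Meis2-overexpressing pools, against 51.5, 45.5 and 27.8 CPM in control pools. Rpl41 is not analysed here.

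**Figure D3:**
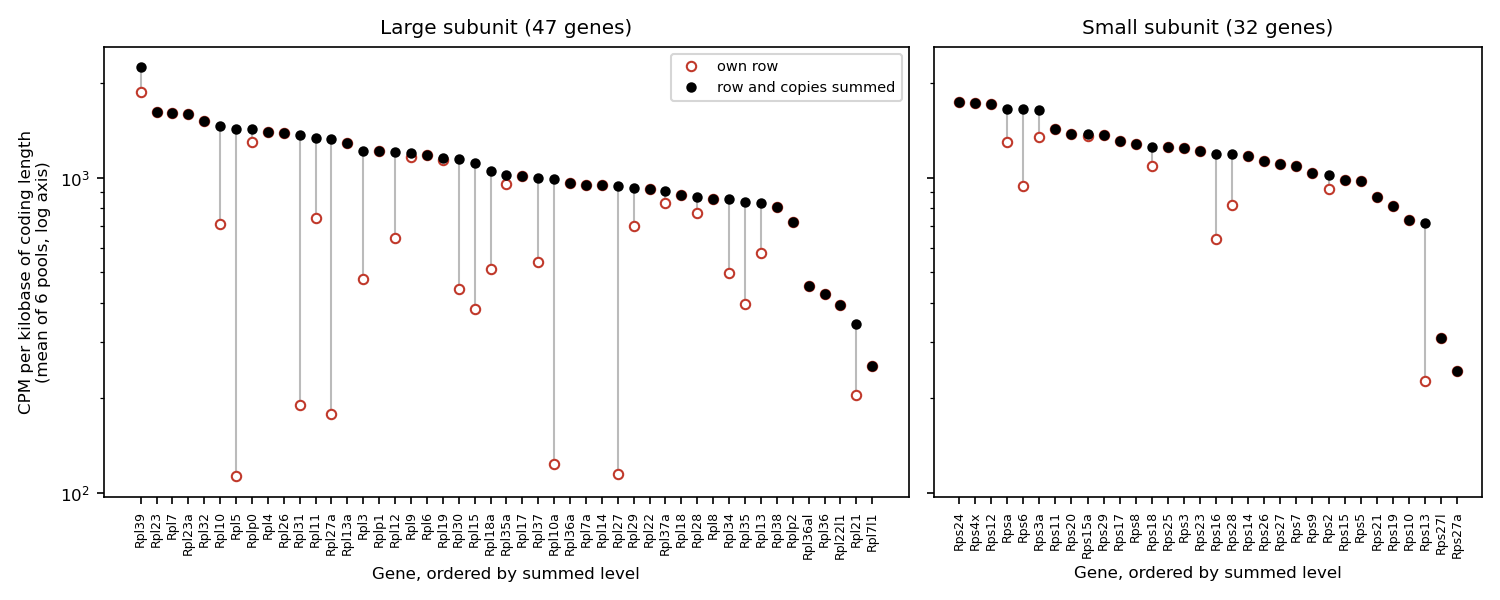
CPM per kilobase of coding length (log axis, mean of the 6 pools) of 47 large and 32 small subunit genes, ordered by the level with copies summed. Open circles are the gene's own row and filled circles the row and its copies summed; the rows of Rpl5, Rpl27 and Rpl10a lie lowest in the large subunit and move to 1429, 939.5 and 989.

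Stage was tested as the number of somites. In a limma fit with genotype and somite number, 1 of 81 members was called, Rps2, where 0.356% of all genes were. The slope was below 0 for 71 of 81 members, 41 large and 30 small, beside 50.8% of all genes. The median slope was -0.04 log2 units per somite in each subunit, beside -0.00 for all genes. With copies summed, 77 of 81 slopes were below 0, beside 50.7% of all rows, and the medians were unchanged at -0.04. In that fit 0 members were called, where 0.399% of all rows were. Slopes with copies ran between -0.11 and 0.04. At an unadjusted p under 0.05 there were 4 members (4.94%) in each of the fits, where 6.28% of all genes and, with copies summed, 6.42% of all rows were.

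The pool at 37 somites was the highest of its genotype for 64 of 81 members in Meis2-overexpressing tips and for 63 of 81 in control tips, with copies summed. The corresponding shares of all rows were 37.6% and 34.3%. It was the highest in both genotypes for 50 members (61.7%), beside 11.4% of all rows. The stages at 38 and 39 somites were closer to each other. The genes of the 2 subunits were alike in this, with 29 of 48 large and 21 of 33 small subunit genes highest at 37 somites in both genotypes. Each stage of a genotype was 1 pool, so a difference between stages and a difference between those pools cannot be told apart. The ectoderm markers were also highest at 37 somites in each genotype, at 489.6, 447 and 466 CPM in Meis2-overexpressing pools, against 679, 641 and 655 CPM in control pools. The mesenchyme markers were lowest there, at 1779, 2052 and 2162 CPM in Meis2-overexpressing pools, against 1983, 2269 and 2376 CPM in control pools, and their part in the slopes was not tested. The Y-linked gene Eif2s3y had 0.0935, 25.4 and 61.6 CPM in Meis2-overexpressing pools, against 21.4, 39.3 and 44.2 CPM in control pools. It was lowest at 37 somites in each genotype, so male tissue also differed between the pools along the stages. The part of embryo sex in the slopes was not tested.

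**Figure D4:**
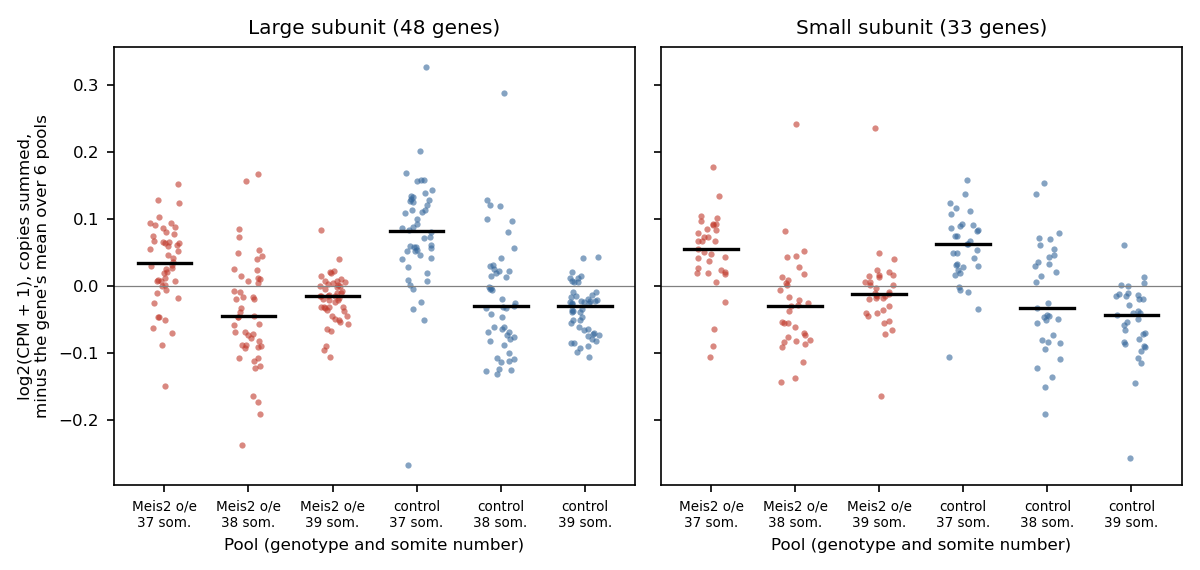
Log2(CPM + 1) of each member with copies summed, minus its mean over the 6 pools (y axis), by genotype and somite number (red, Meis2 overexpression, written o/e; blue, control; som., somites). Points are 48 large and 33 small subunit genes and black lines their medians; the medians lie above 0 in the pools at 37 somites and below 0 in the other 4.

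Rps2, which lies where the mRNA enters the small subunit, had 959, 754 and 590.3 CPM in Meis2-overexpressing pools, against 972, 841 and 758 CPM in control pools, falling with stage in each genotype (slope -0.26 log2 units per somite, SE 0.04, limma adjusted p = 0.0391). Its copy Rps2-ps13 had 1.496, 155 and 274 CPM in Meis2-overexpressing pools, against 1.04, 0.9596 and 90.2 CPM in control pools, and Rps2-ps10, outside the identity limit, had 0.468, 16.1 and 52.9 CPM in Meis2-overexpressing pools, against 0, 0 and 13.1 CPM in control pools. Both copies rose with stage (limma adjusted p = 0.0391 for Rps2-ps13 and 0.0159 for Rps2-ps10). Rps2 and Rps2-ps13 summed to 961, 909 and 864 CPM in Meis2-overexpressing pools, against 973, 842 and 848 CPM in control pools, with a slope of -0.09 (SE 0.04, limma adjusted p = 0.722). The Rps2 call was absent without the Meis2-overexpressing or without the control pool at 39 somites. Without the Meis2-overexpressing pool at 37 somites Rpl34 was called instead (slope 0.74, limma adjusted p = 0.00163), and without the control pool at 37 somites Rps18 was (slope -0.39, limma adjusted p = 0.0211). Both have copies, Rpl34-ps1 and Gm10260, whose CPM differed widely between pools of 1 genotype. Rps3a, in the platform of the small subunit, likewise had 1117, 728 and 1219 CPM in Meis2-overexpressing pools, against 991, 1076 and 1289 CPM in control pools, with Gm10119 at 152, 297 and 10.02 CPM in Meis2-overexpressing pools, against 209, 149.5 and 0.719 CPM in control pools. A second copy, Gm9000, had 94.5, 204 and 8.15 CPM in Meis2-overexpressing pools, against 146, 117 and 0 CPM in control pools. The Rps3a row was highest at 39 somites in both genotypes, where both copies were lowest. The sum was 1363, 1228 and 1237.5 CPM in Meis2-overexpressing pools, against 1346, 1343 and 1290 CPM in control pools. Its slope was -0.05 (limma adjusted p = 0.944).

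TOP tracts at the start of these genes are shown because through them many of the group are known to be translated together. Of the 81 members, 60 matched a RefSeq promoter entry (GRCm38.p6). A cytosine followed by at least 4 pyrimidines, within 2 bases of the annotated start on the gene strand, was present in 21 of 60 members (35.0%) and in 10.6% of 27025 genes. A tract that begins farther from the annotated start was not counted, so the other members need not lack one. The 30 bases around the start of 4 of these 21 members are given, 15 before it and 15 from it on, with the tract in capitals.
Rpl38 (chr11:114668565-114668594, plus strand): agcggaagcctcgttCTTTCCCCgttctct
Rps6 (chr4:86857353-86857382, minus strand): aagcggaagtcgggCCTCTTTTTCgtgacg
Rpl35a (chr16:33056467-33056496, plus strand): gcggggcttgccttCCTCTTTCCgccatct
Rps27 (chr3:90213634-90213663, minus strand): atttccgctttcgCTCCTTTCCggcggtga
The motif CCGGAAG, the core bound by ETS family factors, was in 24 of the 60 members within 250 bases before to 50 after the start, on either strand, and in 9.93% of 27025 genes. The motif TATAA, in the 50 bases before the start on the gene strand, was in 8.33% of members and 5.89% of all genes. The longer TATAAA went the other way in the same window, with 1.67% of members and 3.15% of all genes.

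Of 140 measured ribosome biogenesis genes, 0 were called by limma, 17 had an unadjusted p under 0.05 (12.1%, beside 15.9% of all genes), edgeR called 0 and DESeq2 called 1, Gnl3l. The median log2 fold change was -0.03. Gnl3l, a nucleolar GTPase, had 137, 121 and 134 CPM in Meis2-overexpressing pools, against 110.05, 107 and 100.1 CPM in control pools (log2 fold change 0.31, limma adjusted p = 0.0587). Polr1b, the second largest subunit of RNA polymerase I, which transcribes rRNA, had 89.2, 89.9 and 89.2 CPM in Meis2-overexpressing pools, against 77.7, 71.8 and 79.5 CPM in control pools (log2 fold change 0.23, limma adjusted p = 0.116). Neither overlapped between the genotypes. Of 77 translation factor genes 1 was called by limma, where 1.47% of all genes were. An unadjusted p under 0.05 was found for 12 of them (15.6%, beside 15.9% of all genes), and the median log2 fold change was -0.01. The called gene, whose row rose, was Eif3j, a factor of initiation and ribosome recycling. Copies were searched only for the ribosomal protein genes, so whether the Eif3j row shares reads with a near-identical gene was not tested. It had 49.7, 39.6 and 44.4 CPM in Meis2-overexpressing pools, against 25.7, 29.5 and 34.02 CPM in control pools (log2 fold change 0.57, SE 0.11, limma adjusted p = 0.0402), and was not called when any one pool other than the control at 39 somites was left out.

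Of 78 mitochondrial ribosomal protein genes 0 were called by limma, edgeR or DESeq2 and 4 had an unadjusted p under 0.05 (5.13%, beside 15.9% of all genes), with a median log2 fold change of -0.03. Mrps18a had 30.7, 31.1 and 25.9 CPM in Meis2-overexpressing pools, against 22.9, 23.6 and 25.3 CPM in control pools. Mrps31 had 21.7, 22.1 and 24.9 CPM in Meis2-overexpressing pools, against 25.3, 30.8 and 26.4 CPM in control pools. These had the smallest p in this list (limma adjusted p = 0.201 and 0.26). Of 31 genes of TOR signalling and the ribosomal S6 kinases, with Myc family regulators, 0 were called by limma, edgeR or DESeq2 and 8 had an unadjusted p under 0.05 (25.8%, beside 15.9% of all genes), with a median of 0.04. Rps6kb2, an S6 kinase that phosphorylates Rps6, had 20.02, 20.2 and 20.3 CPM in Meis2-overexpressing pools, against 15.9, 16.4 and 15.9 CPM in control pools, without overlap (log2 fold change 0.31, limma adjusted p = 0.118). Mxd3, a partner of Max, had 8.698, 9.45 and 8.54 CPM in Meis2-overexpressing pools, against 6.35, 6.89 and 6.59 CPM in control pools (log2 fold change 0.38, limma adjusted p = 0.154).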

How the data were processed

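PolyA RNA of 6 pools was sequenced from TruSeq RNA v2 libraries, per the labels' protocols. Cutadapt 1.2.1, RSEM 1.17 and edgeR, with build NCBIM37, are listed in the submitters' processing notes. The deposited CPM were whole multiples of 1 step in each library (100% within 0.001 of a whole read), so reads were recovered; in 1 library fewer low values were open to this check. TMM factors from these reads returned the authors' scaling. A planned filter of 1 CPM in 3 libraries removed 0 genes, because every row of the deposited table had at least 2.004 CPM in 3 libraries.

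All 12065 genes were fitted with limma 3.58.1 (trend, two-sided) on log2(CPM + 1), with genotype, or genotype and somite number, as terms and Benjamini-Hochberg adjustment. Copies were found with blastn 2.17.0 in GENCODE M21, which held 11747 of the identifiers, and their CPM summed to the best-matching member. Coding length is that of the longest CCDS transcript. Alternatives were edgeR 4.0.16 and DESeq2 1.42.0 on recovered reads, pseudocounts, a filter, scaling, covariates, the block and leaving out pools. On simulated genotype data with 12065 genes, limma recovered 68.8% of genes changed 1.5-fold and 98.8% of those changed 2-fold. The simulation gave every gene the same dispersion and changed only well-covered genes. These shares therefore need not hold for genes that varied more between the real pools.

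Members, lists and tests were chosen with earlier results of these data known. Named members were those called, the extremes of fold change and level, paralogues, stalk genes, listed disease or signalling genes and members whose direction changed with copies; Rpl13a, Rps3a, Rps2-ps10, Rplp0-ps1 and Fau were added after their values were seen. 3 pools against 3 cannot give an exact permutation p below 0.1, so the tests rest on the spread pooled across genes. Floors of 3 reads cover counting error only. One gene outside the naming rule is not reported here.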

Additional observations from a re-analysis of the deposited data

How the results depend on the processing

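The large subunit had 3 called genes with DESeq2 and 0 with copies summed, at 97% or at 90% identity, the wider limit chosen after seeing the data; every other alternative, each pool left out included, gave 1. The small subunit had 0 in all 17 alternatives. Rpl29 changed sign to 0.033 with copies summed at either identity. With copies summed, leaving out a pool, also chosen after seeing the data, gave 0 to 1 called member. The median log2 fold changes moved by less than the spread between pools, from -0.07 to -0.00 for the large and from -0.03 to 0.02 for the small subunit over the pools left out. By somite number, 0 members were called with copies summed and 0 without the genotype term, and 0 to 1 with a pool left out. Ribosome biogenesis genes had 1 call with DESeq2 and 1 with somite number as a covariate, and translation factors 0 to 1 with a pool left out. Over all genes, 290 were called with DESeq2, 340 with somite number as a covariate and 56 to 162 with a pool left out (115 and 56 without Meis2-overexpressing replicates 1 and 2, 90 and 64 without control replicates 2 and 3). The replicate block gave 258 calls over all genes and the same single member; same-numbered pools correlated at 0.03, -0.15 and 0.38, so the numbers, which are also the stages, were not taken as pairs. For the 46 named members, 782 fold changes were computed under alternatives, and 58 of them, in 27 members, did not have the sign of the main value when rounded to the third decimal, among them both copy-summed values of Rpl29. By call, Rpl29 lost its call with copies summed and Rplp0 (-0.28) and Rpl13a (-0.20) passed with DESeq2. Of the other values, 10 moved beyond the spread between pools, all with copies summed, in Rpl27, Rpl28, Rpl35a, Rplp0 and Rps13. The cause of the differences between tools was not tested. Depth set a floor of 0.194 to 0.388 CPM per library.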
